A study of Mus musculus with 12 samples.

Results

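Exon and junction probe sets of mouse chromosome 9, the chromosome that carries Atr, were examined in the postnatal cerebellum of mice lacking Atr. The members were all probe sets whose identifier starts with PSR09 (a probe selection region, an exon or a piece of one) or JUC09 (a junction, with probes that span a splice site) and that had a value in all 12 samples. They numbered 39191 of the 719071 exon and junction probe sets on the array, 23486 of them exon and 15705 junction probe sets. The members were therefore chosen by their identifier. Their names were not: a gene symbol was available for 1917 of them (447 genes), because the authors' deposited table of the Bax and Bak comparison listed only probe sets that had passed there. For the named genes the Bax and Bak comparison is therefore a description, and only the p53 comparison uses samples that did not decide the naming, though its spread was estimated over all 12 samples.

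The RNA came from the cerebellum of C57BL/6 mice at postnatal day 3, with the meninges removed. All 4 groups held 3 samples, and all carried Math1-Cre, a Cre recombinase driven by the regulatory sequence of Atoh1 (Math1), which acts in granule neuron progenitors and other cells of the rhombic lip lineage and spares Purkinje cells, interneurons and glia. The first pair of groups lacked the cell death effectors: the Atr BaxBak mutants carried Atr-loxP/loxP with Bax-loxP/loxP and Bak--/-, and the BaxBak controls carried Bax-loxP/loxP and Bak--/- without the floxed Atr allele. The second pair lacked p53: the Atr p53 mutants carried Atr-loxP/loxP with p53-loxP/loxP, and the p53 controls carried p53-loxP/loxP. Neither pair included mice with intact Bax, Bak and p53. Nothing in the labels says whether the samples of a group came from different litters, so the p-values rest on the variation among these samples, which may be technical. In whole cerebellum, fewer cells of a type and less RNA per cell cannot be told apart.

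ATR is the kinase that senses single-stranded DNA at stalled replication forks. With its partner ATRIP and its activator TOPBP1 it switches on the kinase CHEK1, which holds back cyclin-dependent kinases until replication is complete. Granule neuron progenitors, which divide in the external granule layer after birth, depend on this pathway because they replicate rapidly. Chromosome 9 holds Atr itself and, among other members of the pathway, Atrip, Topbp1, Chek1, Tipin and Atm.

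Values were the authors' normalised log2 intensities, and every difference below is on the log2 scale. The 12 arrays had medians between 6.46 and 6.49 over all probe sets and between 6.67 and 6.77 over chromosome 9. Of the chromosome 9 probe sets, 30765 (78.5%) were brighter on average than the array's 5222 negative control probe sets, whose mean was 4.27. The mean of the negative controls differed between groups, at 4.11 in the BaxBak controls, 4.43 in the Atr BaxBak mutants, 4.23 in the p53 controls and 4.30 in the Atr p53 mutants. The number of arrays limits the precision of every value. Positions are given as a percentage of the RefSeq order of the 2487 genes of the chromosome, in which Atr stood at 72.2%. They were interpolated between named probe sets, since identifiers run in that order, and 38321 probe sets could be placed.

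The promoters of 4 genes are shown. These genes were lower in the Atr BaxBak mutants by over 2-fold and belong to cell cycle groups whose promoters are known for such motifs. The 4 are a pick and not every such gene: Kif15, lower by 1.05 on the log2 scale, is not among them. The motif counts below describe these 4 only. Each is 300 bases, 250 before and 50 after the gene start, from RefSeq on GRCm38.p6. Capitals mark every match, on either strand, to the cell cycle homology region TTTGAA, to the CCAAT box CCAAT or to the E2F sites TTTCCCGC, TTTCGCGC, TTTGCCGC and TTTGGCGC. The cyclin gene Ccnb2 lies on the minus strand (chr9:70421505-70421804), the spindle checkpoint kinase gene Ttk on the plus strand (chr9:83834439-83834738), the cytokinesis motor gene Kif23 on the minus strand (chr9:61946750-61947049) and 2810417H13Rik, now called Pclaf, whose protein binds PCNA at replication forks, on the plus strand (chr9:65890073-65890372).
Ccnb2: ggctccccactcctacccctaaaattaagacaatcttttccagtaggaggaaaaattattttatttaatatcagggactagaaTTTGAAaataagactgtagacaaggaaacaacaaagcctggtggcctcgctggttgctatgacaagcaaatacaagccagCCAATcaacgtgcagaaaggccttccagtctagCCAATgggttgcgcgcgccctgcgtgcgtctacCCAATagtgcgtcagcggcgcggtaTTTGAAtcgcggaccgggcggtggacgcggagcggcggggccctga
Ttk: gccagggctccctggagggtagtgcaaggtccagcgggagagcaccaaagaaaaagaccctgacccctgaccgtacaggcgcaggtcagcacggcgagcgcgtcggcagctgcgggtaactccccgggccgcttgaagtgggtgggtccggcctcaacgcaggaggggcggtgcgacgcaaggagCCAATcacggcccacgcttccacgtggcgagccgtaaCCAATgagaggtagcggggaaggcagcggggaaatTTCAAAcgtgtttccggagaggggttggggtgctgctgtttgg
Kif23: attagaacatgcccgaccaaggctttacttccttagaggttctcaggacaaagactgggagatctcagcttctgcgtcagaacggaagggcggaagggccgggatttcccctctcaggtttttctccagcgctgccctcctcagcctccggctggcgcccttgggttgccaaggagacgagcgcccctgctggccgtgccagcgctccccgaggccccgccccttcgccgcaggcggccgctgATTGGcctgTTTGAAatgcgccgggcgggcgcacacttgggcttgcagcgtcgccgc
2810417H13Rik: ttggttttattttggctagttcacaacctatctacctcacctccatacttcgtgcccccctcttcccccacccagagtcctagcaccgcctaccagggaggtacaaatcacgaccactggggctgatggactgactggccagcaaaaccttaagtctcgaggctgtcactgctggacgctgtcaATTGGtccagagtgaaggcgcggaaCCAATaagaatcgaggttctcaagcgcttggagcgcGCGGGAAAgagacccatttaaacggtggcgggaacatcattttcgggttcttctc
The CCAAT box was found in 4 of the 4 promoters and in 37.4% of the 32851 RefSeq promoters of the same length. The cell cycle homology region was found in 3 of the 4, all but that of 2810417H13Rik, and in 17.9% of all promoters. An E2F site was found only in the promoter of 2810417H13Rik among the 4, and in 2.26% of all promoters. A match describes these letters and shows no binding.

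The Atr p53 mutants differed from the p53 controls at few probe sets, and those that were lower lay in a single stretch of chromosome 9. On chromosome 9, 16 probe sets passed (limma, Benjamini-Hochberg adjusted p under 0.05 over all 719071), 15 lower and 1 higher in the Atr p53 mutants. Over the whole array 32 passed, or 0.00445% (0.00209% lower and 0.00236% higher), against 0.0408% on chromosome 9. All 15 that fell on the array lay on chromosome 9. They lay between 59.6 and 66.5% of the gene order, in the part of the chromosome that holds Gnb5, Myo6, Ttk and Cyb5r4, before the position of Atr. A junction of Gnb5 lay at 59.6% and one of Cyb5r4 at 66.5%, and the others between 63.6 and 65.3%. The probe set that rose lay at 67.3%. In all 16 the 3 mutants and the 3 p53 controls did not overlap. The same held for all 2262 that passed in the BaxBak comparison and all 33 between the controls, so it adds nothing to the test. The 15 that fell were lower by at least 2.73-fold, where mutants below the negative controls (5 of the 15) were taken at the level of those controls. Of the 16, 13 had no name, and the other 3 were junctions of Gnb5, Cyb5r4 and Snhg5.

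The largest fall was at the unnamed junction probe set JUC0900004654.mm.1, which lies between probe sets of Myo6 and Ttk. Its log2 level was 7.63, 8.67 and 8.53 in the p53 controls and 3.70, 3.24 and 2.80 in the Atr p53 mutants. In the BaxBak controls it was 8.04, 8.22 and 7.72, and in the Atr BaxBak mutants 8.18, 8.50 and 8.38. The Atr p53 mutants thus stood apart from the 9 other samples, below the mean of the negative controls. The fitted log2 difference was −5.03 (SE 0.28, limma adjusted p = 0.0007), and the probe set was at least 15.8-fold lower, with the mutants' level taken no lower than that of the negative controls. The corresponding difference in the Atr BaxBak mutants was 0.36 (adjusted p = 0.51), and the difference between the 2 Atr effects was 5.39 (adjusted p = 0.0013).

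The unnamed exon probe set PSR0900008567.mm.1, between probe sets of Myo6 and Gm9531, also had its lowest levels in the Atr p53 mutants. Its level was 6.88, 7.46 and 7.02 in the p53 controls, 2.96, 2.55 and 3.12 in the Atr p53 mutants, 7.17, 7.47 and 7.33 in the BaxBak controls and 7.44, 7.95 and 7.49 in the Atr BaxBak mutants. It was at least 7.08-fold lower in the Atr p53 mutants (log2 difference −4.24, SE 0.20, limma adjusted p = 0.0002). Its neighbours in that interval, 4 further unnamed exon probe sets, fell by 1.82 to 2.69, and in 1 of them the mutants lay below the negative controls. Of the 15 lowered probe sets, the Atr p53 mutants were the lowest of the 4 groups in 14, and the Atr BaxBak mutants were above their controls in 9 and below in 6. Of the 16, 12 passed in the test of the difference between the 2 Atr effects.

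Of the lowered probe sets 3 also passed in the Atr BaxBak mutants. The first was a junction of Gnb5, which encodes a G protein beta subunit that partners with RGS proteins. Its level was 9.66, 9.62 and 9.23 in the BaxBak controls, 8.19, 7.85 and 7.83 in the Atr BaxBak mutants, 8.90, 9.17 and 9.04 in the p53 controls and 7.22, 7.41 and 7.65 in the Atr p53 mutants. Mutants lay below controls in both pairs, by 1.55 (limma adjusted p = 0.0015) and by 1.61 (SE 0.16, adjusted p = 0.0207) on the log2 scale. The second was 1 junction of Cyb5r4, a cytochrome b5 reductase, at 6.85, 7.41 and 6.73 in the BaxBak controls, 2.12, 1.83 and 2.64 in the Atr BaxBak mutants, 5.72, 5.71 and 5.80 in the p53 controls and 1.85, 2.39 and 2.56 in the Atr p53 mutants. Both mutant groups were below the negative controls there, while the other 22 named probe sets of Cyb5r4 differed by −0.47 to 0.21 in the p53 comparison (median −0.03) and by a median of −0.78 in the BaxBak comparison. The last was an unnamed junction that lies among the Ttk probe sets, at −1.34 in the BaxBak and −3.08 in the p53 comparison.

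A junction of Snhg5, a small nucleolar RNA host gene, was the only chromosome 9 probe set that rose. It read 2.27, 1.61 and 1.94 in the p53 controls and 3.96, 4.16 and 4.68 in the Atr p53 mutants (log2 difference 2.33, SE 0.22, limma adjusted p = 0.0150). Since the p53 controls lay below the negative controls, the rise is stated as at least 1.02-fold. It also rose in the Atr BaxBak mutants, from 2.58, 2.07 and 2.62 to 3.90, 4.01 and 4.15, all below the negative controls of those arrays.

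The rest of the stretch moved less. It held 2841 probe sets, of which 14.4% had an unadjusted p under 0.05 in the p53 comparison, against 7.49% of the 35480 placed elsewhere. Its limits were drawn at the first and last call, so the absence of calls elsewhere is fixed by that choice, and the share inside includes the calls. The median difference was −0.06 in the stretch and −0.02 elsewhere. The sample titles give a number before each name, whose meaning is not stated, and the 3 Atr p53 mutants shared it with the first p53 control only. In 14 of the 15 lowered probe sets that control was the lowest of the 3 controls, and in all 15 it was above the 3 mutants. The median difference was −2.59 against all controls, −2.27 against the control with the shared number (range −4.38 to −1.48) and −2.85 without it. With the 5 probe sets below the negative controls at their bound, the median fall against all controls was 2.15. When only the 2 p53 groups entered the fit, none of the chromosome 9 probe sets passed (limma, smallest adjusted p among the 16 of 0.0832), with 2202 at an unadjusted p under 0.05. Without the third p53 control 10 passed, and without the first 21. In the authors' deposited table of this comparison, 0 of the 2079 chromosome 9 probe sets listed had a step-up p under 0.05 and 400 an unadjusted one. It listed the same probe sets as the authors' BaxBak table, all of which had passed there. It is therefore no check on calls that it does not list.

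**Figure D1:**
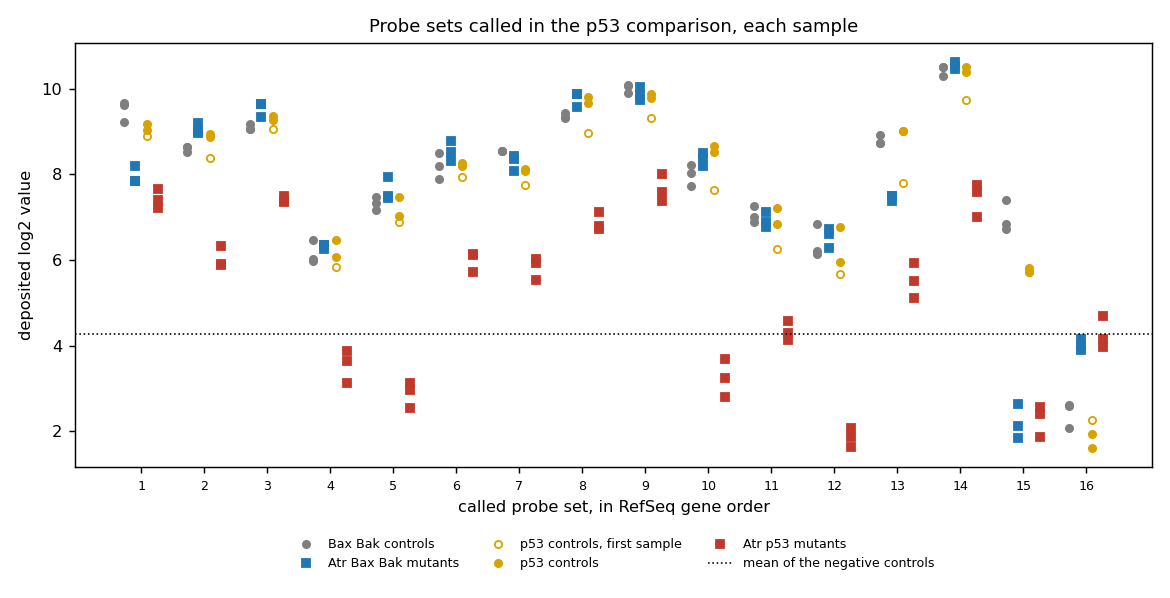
Log2 level of the 16 chromosome 9 probe sets that passed in the p53 comparison, in each of the 12 samples, by group. In 15 of them the 3 Atr p53 mutants lie below the 3 p53 controls, and in most the Atr BaxBak mutants stay with their controls.

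Among named genes, taken as the mean of a gene's named probe sets, 19 of 447 passed in the p53 comparison, 7 higher and 12 lower. Over all 8095 named genes 2.56% passed (1.24% higher and 1.32% lower), and the count on chromosome 9 is near that share for the genes that rose. Of the 19, 14 rested on 1 probe set, and 8 of the 17 that could be placed lay between 55 and 70% of the gene order, where 64 of the named genes lie. That window encloses the stretch drawn at the calls of this same comparison, and gene means include called probe sets, such as that of Gnb5. The count of 8 is therefore a description only. Leaving out 1 library at a time left 3 (without the third p53 control) to 44 (without the third Atr p53 mutant), and with only the p53 groups in the fit 5 passed. The median p53 difference of named genes was −0.0021 between 55 and 70% of the order and −0.05 elsewhere. The sign was the same in the BaxBak comparison for 17 of the 19. Gnb5 had the smallest p, with a mean level of 8.46, 8.54 and 8.64 in the p53 controls and 7.38, 7.45 and 7.54 in the Atr p53 mutants (log2 difference −1.09, SE 0.09, limma adjusted p = 0.000245). The same gene read 8.98, 9.02 and 8.65 in the BaxBak controls and 7.34, 7.36 and 7.40 in the Atr BaxBak mutants, and in both pairs the groups did not overlap.

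Myo6, an actin motor that moves towards the minus end of filaments, lay in the same stretch and fell across its named probe sets. Its level was 9.21, 9.23 and 9.21 in the p53 controls and 8.65, 8.69 and 8.69 in the Atr p53 mutants. The difference was −0.54 (SE 0.07, limma adjusted p = 0.0039), with all 12 of its named probe sets lower, and −0.53 in the BaxBak comparison. Probe sets of Myo6 without a name were not counted. Myo6 was also lower in the p53 controls than in the BaxBak controls, by 0.34 (adjusted p = 0.0083). Lrrc1, a scaffold protein with leucine-rich repeats, fell by 1.10 (adjusted p = 0.0213) on 1 probe set, and Unc13c, a synaptic vesicle priming factor of granule neurons whose gene lies just before the stretch, fell by 0.61 (adjusted p = 0.0359) on 1 probe set.

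Outside the stretch, Acvr2b, an activin receptor, fell from 7.34, 7.43 and 7.36 to 6.96, 7.04 and 7.11 (−0.34, limma adjusted p = 0.0192). LOC102633152, which could not be placed, was at least 1.08-fold lower (adjusted p = 0.0192), with mutants at 2.58 to 2.96, below the negative controls. Gm10639, which lies in the stretch, rose by 0.42 at levels below the negative controls in all groups. Ppp2r3a, a regulatory subunit of protein phosphatase 2A, went opposite ways: it read 4.89, 5.36 and 4.98 in the p53 controls and 4.64, 4.26 and 3.96 in the Atr p53 mutants (−0.79, adjusted p = 0.0353), but 5.36, 5.42 and 5.54 in the BaxBak controls and 6.98, 6.91 and 7.22 in the Atr BaxBak mutants (1.60). The difference between its 2 effects was 2.39 (SE 0.23, adjusted p = 6.24e-05), on 1 probe set.

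**Figure D2:**
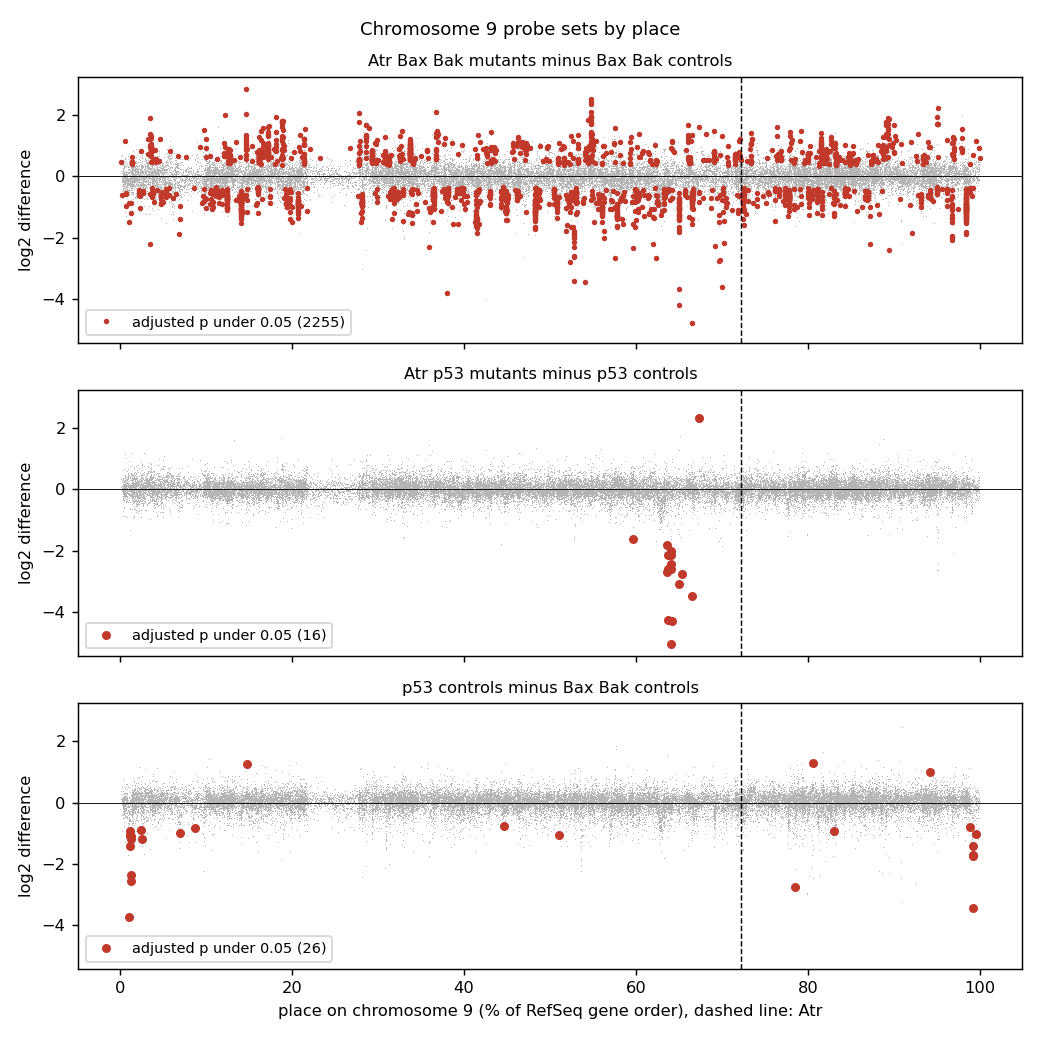
Log2 difference of each placed chromosome 9 probe set against its position in the RefSeq gene order, for the BaxBak comparison, the p53 comparison and the 2 control groups, with probe sets that passed in colour. The calls of the p53 comparison lie between 59.6 and 67.3% of the order, before Atr at 72.2%.

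Atr itself had no named probe set, so the deletion could not be read at the gene. The unnamed probe sets around its position were taken as an interval, 201 exon probe sets between the outer named neighbours Slc9a9 and Tfdp2 and 112 junction probe sets between Slc9a9 and Xrn1; which of them belong to Atr is not known. In the p53 comparison none of the 201 passed (limma, smallest adjusted p 0.640), with 24 (11.9%) at an unadjusted p under 0.05, against 7.76% of the array, and differences between −0.53 and 0.47. None of the 112 junction probe sets passed either (smallest adjusted p 0.411), with 15 (13.4%) at an unadjusted p under 0.05. Their differences ran from −1.09 to 0.78. In the BaxBak comparison 4 of the 201 and 2 of the 112 passed, smaller shares than the 5.24% of the array.

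The 5 named genes on each side of Atr did not pass in the p53 comparison. In the BaxBak comparison, where naming required a difference, Xrn1, the cytoplasmic exonuclease that degrades decapped RNA, had a level of 8.08 ± 0.08 in the controls and 7.51 ± 0.13 in the mutants (SD, n = 3). It had 7.28 ± 0.22 in the p53 controls and 7.40 ± 0.12 in the Atr p53 mutants. The BaxBak controls thus stood above the other 3 groups, and the p53 controls were lower by 0.80 (SE 0.11, limma adjusted p = 0.0012). Gk5, a glycerol kinase family member, and Atp1b3, a sodium pump beta subunit, were also lower in the p53 controls, by 0.68 (adjusted p = 0.0293) and 0.24 (adjusted p = 0.0244). Xrn1 and Gk5 each rested on 1 named probe set and Atp1b3 on 11. Gk5 averaged 4.37 in the Atr BaxBak mutants and 4.29 in the Atr p53 mutants, near the negative controls. The transcription factor gene Tfdp2, a dimer partner of E2F proteins, fell by 0.81 in the Atr BaxBak mutants. Slc9a9, an endosomal sodium-proton exchanger, was 0.58 higher there.

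The Atr BaxBak mutants differed from the BaxBak controls along the whole chromosome. There 2262 of the 39191 probe sets passed (limma, adjusted p under 0.05), 969 higher and 1293 lower, and 584 differed by at least 2-fold. Over the array 5.24% passed (2.22% higher and 3.02% lower), against 5.77% on chromosome 9, so the chromosome's share was near the background. Exon probe sets split 728 higher and 706 lower (3.1 and 3.01%, against 2.79 and 2.78% over the array). Junction probe sets split 241 higher and 587 lower (1.53 and 3.74%, against 1.35 and 3.39%), so both splits were near those of the array. The 3 Atr BaxBak mutants shared a title number that no other sample had, so whatever that number marks cannot be told apart from the Atr allele in this comparison; with it as a random block 2089 passed. Without any one of the 6 BaxBak libraries 541 to 1057 passed. Calls lay in all of 20 equal parts of the gene order, from 2.30 to 8.55% of the probe sets in each. The negative control mean rose with this comparison, and with it as a covariate 56 chromosome 9 probe sets passed; its part in the result was not tested otherwise. Among named genes 442 of 447 passed, 176 higher and 266 lower, against 98.2% of all named genes (39.5% higher and 58.7% lower), which the naming fixes and from which nothing is read.

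Of 12 listed checkpoint genes, 10 were named, and 10 of 10 were lower in the Atr BaxBak mutants, where 59.5% of all named chromosome 9 genes were lower and 39.4% higher. This count and those of the lists below are of genes named through that same comparison and describe them only. The checkpoint genes had a median difference of −0.60 against −0.35 over all named chromosome 9 genes. None passed in the p53 comparison (median −0.14 against −0.04). Chek1 fell most, and its level was 8.35, 8.51 and 8.39 in the BaxBak controls, 7.51, 7.61 and 7.33 in the Atr BaxBak mutants, 8.40, 8.27 and 8.20 in the p53 controls and 8.09, 8.04 and 8.44 in the Atr p53 mutants. The Atr BaxBak mutants stood below the other 9 samples, by 0.93 (SE 0.11) against their controls, and the difference between the 2 Atr effects was −0.84 (SE 0.15, limma adjusted p = 0.0010). Tipin, which with Timeless stabilises forks, fell by 0.88, and Topbp1 and the nuclease gene Mre11a each fell by 0.66. The histone gene H2afx fell by 0.52 on 1 probe set.

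Of 14 listed replication and repair genes, 11 were named, 2 higher and 9 lower in the Atr BaxBak mutants. 2810417H13Rik was lowest of all chromosome 9 genes with at least 3 named probe sets, at 9.19, 9.30 and 9.09 in the BaxBak controls and 6.99, 7.12 and 6.71 in the Atr BaxBak mutants, a difference of −2.25 (SE 0.10). It read 8.72, 8.79 and 8.76 in the p53 controls and 8.70, 8.51 and 8.75 in the Atr p53 mutants, groups that overlapped (−0.11). The difference between the 2 Atr effects was −2.15 (SE 0.14, limma adjusted p = 8.03e-06), and 9 of its 10 named probe sets passed that test. Traip, a ubiquitin ligase of the replisome, and Pif1, a helicase, fell by 0.84 and 0.97, and in the difference by 0.95 (adjusted p = 9.07e-05) and 0.98 (adjusted p = 4.21e-05).

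Of 13 listed mitotic genes 9 were named, and all 9 were lower in the Atr BaxBak mutants (median −0.91), against 59.5% of the named chromosome 9 genes. All 9 were also lower in the difference between the 2 Atr effects, while none passed in the p53 comparison. Ttk read 8.17, 8.31 and 8.29 in the BaxBak controls, 6.84, 7.01 and 6.68 in the Atr BaxBak mutants, 8.10, 8.01 and 7.87 in the p53 controls and 7.97, 7.37 and 8.09 in the Atr p53 mutants. It was lower by 1.41 (SE 0.16) in the Atr BaxBak mutants, and the p53 groups overlapped. Ccnb2 read 9.53, 9.71 and 9.68 in the BaxBak controls and 8.29, 8.67 and 8.57 in the mutants, a fall of 1.13. Kif23 fell by 1.08, the motor gene Kif15 by 1.05, and Anln, the scaffold of the cytokinetic ring, by 0.91.

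Of 22 listed Purkinje cell and neuronal genes 14 were named, 10 higher and 4 lower in the Atr BaxBak mutants, where 39.4% of the named chromosome 9 genes were higher. None passed in the p53 comparison. Rora, a nuclear receptor that Purkinje cells need, read 8.10, 8.15 and 8.24 in the BaxBak controls and 8.85, 8.91 and 8.94 in the Atr BaxBak mutants, a rise of 0.74 (SE 0.06), against 8.16, 8.22 and 8.33 and then 8.24, 8.23 and 8.11 in the p53 pair. The RNA-binding protein gene Arpp21 was 1.28 higher and the potassium channel gene Kcnj5 1.19 higher. The 4 that were lower included the nicotinic receptor subunit genes Chrnb4 (−1.46), Chrna3 (−1.28) and Chrna5 (−0.79), which lie next to each other. Chrna3 read 10.13, 10.30 and 10.25 in the controls and 8.99, 9.07 and 8.78 in the mutants.

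The other lists are to be read against the same shares, 39.4% higher and 59.5% lower over the named chromosome 9 genes. Of 8 granule and unipolar brush cell genes 6 were named, 1 higher and 5 lower. Eomes, the transcription factor of unipolar brush cells, fell by 0.73. Zic1, a transcription factor of granule progenitors, fell by 0.30 in the BaxBak comparison and by 0.26 in the p53 comparison, where it did not pass (adjusted p = 0.0505). The 2 named glial genes of 8 listed were higher. Of 21 energy and translation genes 13 were named, 2 higher and 11 lower, with a median of −0.32, near that of all named genes. Of 12 p53 target and partner genes 6 were named, 2 higher and 4 lower. Of 12 innate sensing genes 3 were named, 2 higher and 1 lower. Of 14 vessel and meninges genes 5 were named, 2 higher and 3 lower, and of 15 genes of Wnt, Tgfb and Hippo signalling 9 were named, 2 higher and 7 lower. Of 18 genes listed as neighbours of Atr 9 were named, 3 higher and 6 lower.

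**Figure D3:**
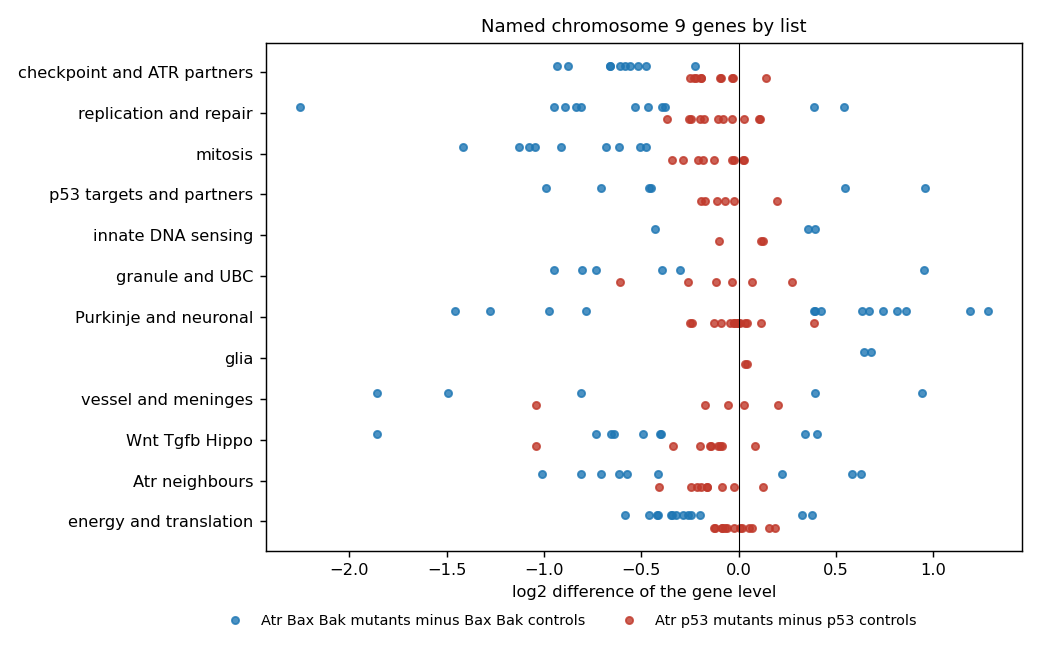
Log2 difference of each named chromosome 9 gene of the lists in the BaxBak and in the p53 comparison, 1 point a gene, grouped by list. The checkpoint and mitosis genes lie below 0 in the BaxBak comparison and near 0 in the p53 comparison.

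Named markers of cell types differed in the BaxBak comparison, on chromosome 9 and elsewhere. A marker had a name only if one of its probe sets had passed the authors' BaxBak comparison. The counts therefore describe the named markers only, against 39.5% higher and 58.7% lower over all named genes. All 7 granule lineage markers were lower in the Atr BaxBak mutants, with a summed log2 level of 66.7 to 67.0 against 70.5 to 71.5 in the BaxBak controls, and 1 was lower in the Atr p53 mutants (67.1 to 68.5 against 69.6 to 70.3). The named markers of Purkinje cells (3 of 4), interneurons (3 of 4), astroglia (3 of 4), the oligodendrocyte lineage (2 of 4), microglia (1 of 3) and endothelium (1 of 5) were all higher in the Atr BaxBak mutants. Their summed levels were, for Purkinje cells, 24.3 to 25.6 in the BaxBak controls and 28.1 to 28.3 in the Atr BaxBak mutants, and in interneurons 27.2 to 27.7 and 29.4 to 29.9. No named marker lay below the negative controls in any group. The meninges marker Col1a1 and the choroid plexus marker Otx2 were lower in the Atr BaxBak mutants. Their part in the gene differences was not tested.

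Beyond the last Rora probe set a run of 19 consecutive exon probe sets was higher in the Atr BaxBak mutants throughout. The run was picked after its values were seen, and 5 of its probe sets carry the names 9530091C08Rik, F830001A07Rik and Gm19304, transcripts without a known role, while 14 have none. The median level of the run was 4.46, 4.59 and 4.81 in the BaxBak controls and 5.90, 6.00 and 5.89 in the Atr BaxBak mutants. It was 4.94, 4.50 and 4.73 in the p53 controls and 4.87, 5.19 and 4.68 in the Atr p53 mutants. The Atr BaxBak mutants stood above the other 9 samples. All 19 passed as higher in the BaxBak comparison (0.93 to 2.53, median 1.43), none passed in the p53 comparison (median 0.26), and 6 passed in the difference between the 2 effects. For PSR0900006987.mm.1, named 9530091C08Rik, both BaxBak groups lay below the negative controls, so its fitted difference of 1.69 has no bound. For PSR0900007002.mm.1 only the BaxBak controls did, and its rise was at least 1.57-fold. The unnamed exon probe set PSR0900006993.mm.1 had the smallest p among the unnamed rises on the chromosome, from 5.01, 5.24 and 5.14 to 7.51, 7.63 and 7.53.

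**Figure D4:**
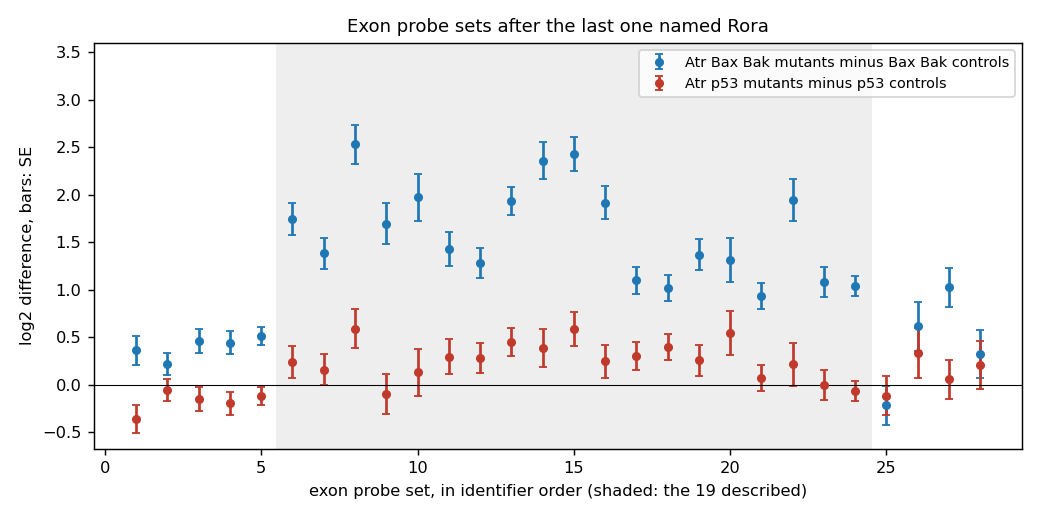
Log2 difference (bars: SE) of exon probe sets around and after the last Rora probe set, in identifier order, for the BaxBak and p53 comparisons. The 19 described in the text are shaded. Over the shaded run the differences of the BaxBak comparison lie above those of the p53 comparison.

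The probe sets that passed between the control groups lay mostly near the ends of the chromosome. Between p53 controls and BaxBak controls 33 chromosome 9 probe sets passed (limma, adjusted p under 0.05), 3 higher and 30 lower in the p53 controls. That is 0.0842% against 0.0964% of the array, a total near the background. By direction it is 0.00765% higher and 0.0765% lower, against 0.0512% higher and 0.0452% lower over the array. Of the 33, 13 lay in the first 10% of the gene order (2724 probe sets), 6 in the last 2% (545) and 7 beyond the outermost named genes (870). The other 7 lay elsewhere. These limits were not set in advance, so the counts only describe where the calls lay. In 26 the 6 samples of one background did not overlap the 6 of the other, and in 27 the mutants of both backgrounds lay nearer their own controls than the other controls. None of the 33 passed in the p53 comparison (limma). Without BaxBak control 1 or 2 the count was 11, without p53 control 3 it was 19 and without p53 control 1 it was 72.

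The unnamed junction probe set JUC0900015715.mm.1, beyond the last named gene, had the largest fall. It read 8.42, 8.40 and 8.01 in the BaxBak controls, 8.28, 8.26 and 8.11 in the Atr BaxBak mutants, 4.21, 3.68 and 3.70 in the p53 controls and 3.96, 4.11 and 3.75 in the Atr p53 mutants. The 6 p53-deficient samples lay together, and the p53 controls alone were 4.41 below the BaxBak controls (SE 0.17), at a mean of 3.87 that is under that group's mean negative control level of 4.23. The unnamed exon probe set PSR0900014008.mm.1 read 9.10, 9.17 and 9.19 in the BaxBak controls and 5.55, 4.86 and 5.20 in the p53 controls. The 4 named probe sets that passed belonged to Pdgfd, a growth factor gene (at least 2.44-fold lower), Naalad2 (at least 1.17-fold lower), both with the p53 controls below the negative controls, the steroidogenic enzyme gene Cyp11a1 (−0.76) and Xylb, a xylulokinase gene (1.01). Of the 3 that rose, the unnamed junction JUC0900014019.mm.1 was higher by 1.28 and JUC0900009134.mm.1 by at least 1.17-fold, with its BaxBak controls below the negative controls.

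**Figure D5:**
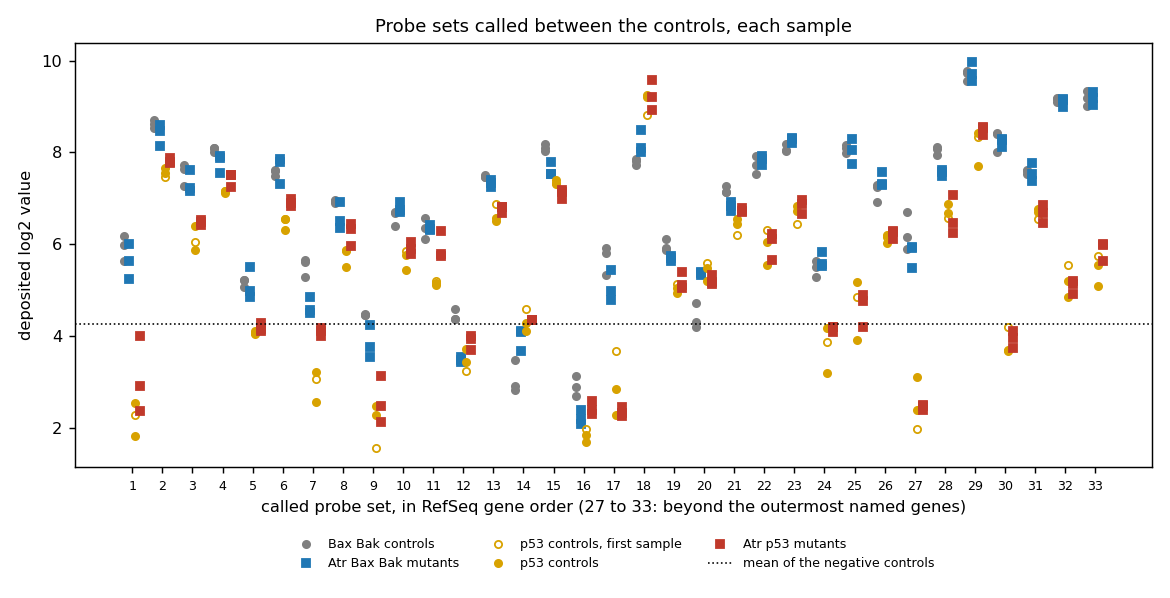
Log2 level of the 33 chromosome 9 probe sets that passed between the control groups, in each of the 12 samples. In most of them the 6 samples of one background separate from the 6 of the other, whatever their Atr allele.

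Among named genes 84 passed between the controls, 29 higher and 55 lower in the p53 controls, against 17% of all named genes (7.49% higher and 9.55% lower). With at least 3 named probe sets, Cdhr4, a cadherin-related gene, was lowest (−0.46), followed by 2810417H13Rik (−0.43), the mitochondrial unfoldase gene Clpx (−0.43) and Anln (−0.43). Eomes was highest, at 9.32, 9.36 and 9.19 in the BaxBak controls and 9.85, 9.79 and 9.55 in the p53 controls (0.44, SE 0.10, limma adjusted p = 0.0165). Gsta4, a glutathione transferase gene, followed at 0.42. The comparison between controls shares its samples with the other comparisons.

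The difference between the 2 Atr effects, the BaxBak effect minus the p53 effect, passed in 56 chromosome 9 probe sets, 30 higher and 26 lower. That is 0.143% against 0.0809% of the array (0.0441% higher and 0.0369% lower). Of the 56, 13 lay in the stretch of the p53 calls, 12 of them higher, and 9 were probe sets of 2810417H13Rik. Those 12 were lowered calls of the p53 comparison, whose effect is subtracted in the difference. The stretch was drawn at the same calls, so their place is not a separate result. Leaving out 1 library at a time left 19 (without the second BaxBak control) to 119 (without the second Atr p53 mutant). Mapkapk3, a stress kinase, contributed 3, and Anln, Dscaml1, Kif23 and Mns1 contributed 2 each.

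At the gene level 381 of the 447 named genes passed in that difference, 156 higher and 225 lower, against 83.8% of all named genes (33.6% higher and 50.2% lower), a share near the background and shaped by the naming. Npsr1, the neuropeptide S receptor gene, read 5.16, 5.33 and 4.96 in the BaxBak controls and 6.32, 6.49 and 6.39 in the Atr BaxBak mutants, and between 4.94 and 5.22 in the 6 samples of the p53 pair. Its difference was 1.40 (SE 0.13, limma adjusted p = 4.32e-05). Dscaml1, a cell adhesion gene, was higher by 0.83 in the difference. Mns1, a gene of motile cilia and sperm tails, fell by 1.22 in the BaxBak comparison and differed by 0.07 in the p53 comparison.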

How the data were processed

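RNA was labelled from 500 ng of total RNA and hybridised to Affymetrix exon and junction arrays, 12 in all, with 3 samples a group. The deposited values are log2 intensities per probe set, normalised by the authors. Partek is named, per the submitters' processing notes, while for the background correction, probe summary, normalisation method and genome build the entry is: not given in the sources used here. The authors' deposited tables give a p-value, a step-up p-value and a signed fold change (a score below 0 for a fall) for each comparison, per the file headers. Gene symbols came from the table of the BaxBak comparison. Exon and junction probe sets with complete values were fitted with 1 mean a group (limma 3.58.1, R 4.3.3, Benjamini-Hochberg over 719071), and gene means likewise over 8095 named genes. The script was tested on simulated data. Tables and figures used Python 3.11.15, pandas 2.3.3, numpy 2.4.6 and matplotlib 3.10.9. A group at or below its negative controls was given their mean in an "at least" fold. Named in the text were list members (up to 5 a list by smallest p), genes with at least 3 named probe sets among the 8 highest or lowest in the BaxBak or control comparison, the 8 smallest p in the p53 comparison and in the difference, 5 genes each side of Atr, and up to 2 unnamed probe sets a direction, though not all of these are described. Genes outside the rule (among them Cyb5r4, H2afx, Kif15, Chrna5, Zic1, Snhg5 at probe set level and the probe sets that passed) were chosen after their values were seen. The members and lists were chosen with earlier results of these data known. Replicate numbers follow accession order and name samples only. Alternatives were the samples in the fit, quantile normalization, an intensity trend, a negative control covariate, the title number as a block and a stricter threshold. Others were only probe sets brighter on average than the negative controls, only genes with at least 3 named probe sets, and leaving out each library. For gene levels, the brightest probe set or the median of the probe sets replaced the mean.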

Additional observations from a re-analysis of the deposited data

Results flagged for a closer look

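The 2 Atr effects were compared by an interaction term (limma, Benjamini-Hochberg adjusted p under 0.05), which differed in 56 chromosome 9 probe sets and 381 named genes. Over all named genes 83.8% passed in this test, a share shaped by the naming and against which the lists are to be read. By list, the effects differed for 8 of 10 named checkpoint genes, 9 of 11 replication and repair genes, 9 of 9 mitosis genes, 6 of 6 p53 target and partner genes, 2 of 3 innate sensing genes, 4 of 6 granule and unipolar brush cell genes, 14 of 14 Purkinje cell and neuronal genes, 2 of 2 glial genes, 4 of 5 vessel and meninges genes, 8 of 9 Wnt, Tgfb and Hippo genes, 8 of 9 neighbours of Atr and 9 of 13 energy and translation genes. Single genes with the smallest p differed by −2.15 (2810417H13Rik), −0.98 (Pif1), 1.40 (Npsr1), 1.22 (Kcnj5), 2.39 (Ppp2r3a), −0.95 (Traip), 1.59 (9530091C08Rik) and 0.83 (Dscaml1). The unnamed probe sets PSR0900008567.mm.1, PSR0900008564.mm.1 and JUC0900004654.mm.1 differed by 4.54, 2.27 and 5.39, and PSR0900026256.mm.1 by −1.23. For PSR0900008567.mm.1 and JUC0900004654.mm.1 the Atr p53 mutants lay below the negative controls, so these are fitted values.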

How the results depend on the processing

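No paired analysis was possible because replicate numbers follow accession order and only name samples. The cause of each change below was not tested, except that leaving out samples or genes leaves fewer to test. With an intensity trend in the limma fit 3593 probe sets passed in the BaxBak comparison, 262 in the difference and 65 between controls. With the negative control mean as a covariate the counts were 56 in the BaxBak comparison, of which 51 were among the main 2262, and 17 in the difference, and 12 named genes in the p53 comparison. With only the compared groups in the fit the counts were 0 in the p53 comparison (2202 at an unadjusted p under 0.05) and 8 between controls, and 5 named genes in the p53 comparison. Probe sets above the negative controls gave 122 in the difference. At a threshold of 0.01 the counts were 424, 16 and 11 in the BaxBak comparison, the difference and the controls. Leaving out 1 library at a time gave 541 to 3132 probe sets in the BaxBak comparison, 10 to 21 in the p53 comparison, 19 to 119 in the difference and 11 to 72 between controls. For named genes it gave 438 to 442, 3 to 44, 337 to 393 and 29 to 100 in the same order. With at least 3 named probe sets 172, 4, 162 and 31 named genes passed in that order, and with the title number as a random block 31 in the p53 comparison. The most p53 calls in 1 of 20 parts was 7 by identifier number and 11 along the RefSeq gene order, an alternative chosen after seeing the data. The median of the 15 lowered probe sets was −2.27 within the shared title number. Between controls Atp2c1 reversed from 0.40 to −0.0083 with its brightest probe set. Of 2440 alternatives for 130 single genes and probe sets, 2286 kept direction and side of the threshold, 148 lost and 5 gained significance and 1 reversed. Signal below the negative controls leaves only bounds for the lowest probe sets.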
